A study of Mus musculus with 6 samples.

Results

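The genes described here are 9 genes of the cytotoxic program: the granzymes Gzma, Gzmb, Gzmk and Gzmm, the pore-forming protein gene Prf1, the granule membrane protein gene Nkg7, the receptor genes Klrd1 and Klrk1, and the protease gene Ctsw. They were taken by name from the 14125 genes of the count matrix, and all 9 were found there. Their levels were read in 9 annotated cell classes and 5 annotated CD4 subsets of lymph node cells from 7 pregnant mice. Cells from several mice were hash-tagged, loaded together in 3 pools over 6 wells and sequenced with a 10x Genomics 3' kit, which counts unique molecular identifiers (UMIs), each standing for 1 captured transcript.

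The tested animals were 4 Aire-DTR dams (mice 8, 36, 4 and 7), in which cells that express Aire carry the diphtheria toxin receptor, and the controls were 3 WT dams (mice 6, 97 and 1). All 7 dams, WT included, had been mated to BALB/c males and received DT over the first 9 days of pregnancy, and nodes were taken at E9.5. Mouse 8 shared pool 1 with WT mouse 6, mouse 36 shared pool 2 with WT mouse 97, and mice 4 and 7 shared pool LN with WT mouse 1. For Aire-DTR mice, the phenotype column of the cell table reads IUGR for 8, 36 and 7 and resorbed for 4. Every mouse gave a uterine-draining lymph node (udLN) and a brachial lymph node (brLN) sample, 14 samples in all. Age is not given in the sources used here, and which cells the toxin removed was not analysed here.

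Cytotoxic lymphocytes store granzymes, which are serine proteases, together with perforin in secretory granules. On contact with a target, the granules fuse with the cell membrane, perforin opens the target's membrane and the granzymes enter and cleave proteins that lead to cell death. Natural killer (NK) cells are known for keeping these transcripts ready before any stimulus, whereas naive CD8 T cells build up most of them only after activation. Klrd1 encodes CD94, which pairs with NKG2 chains to read a non-classical MHC class I molecule, and Klrk1 encodes NKG2D, an activating receptor for stress-induced ligands.

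Of the deposited cells, 2127 of well 1 of pool LN occurred again with identical counts and labels. They were counted once, which left 7300 of 9427 cells and 22833288 of 29210327 UMIs. The copies touch Aire-DTR mice 4 and 7 and WT mouse 1. In addition, 208 barcodes were shared between wells by different cells. The 14 samples held 48 to 1060 cells and 155098 to 3351478 UMIs, with a median of 2910 UMIs per cell. Hbb-bs, a hemoglobin gene, stood at 2886 UMIs per 1000000 UMIs (CPM) in pool 1 and 2152 CPM in pool 2 against 5.48 CPM in pool LN. Of its 24938 UMIs, 15580 were in the 73 cells labelled Myeloid, and 29.6% to 53.4% of the cells of every class held one. Whether free RNA is its source was not tested. The sort is given as CD45+ CD3+ for the samples and as CD45+ for the series, and the B cell label was held by 2267 of the 7300 cells.

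The class labels were checked against markers that include none of the 9 genes. The 54 cells labelled NK carried Ncr1 at 881 CPM, Klrb1c at 1021 CPM and Tyrobp at 3226 CPM. Tyrobp was at 4422 CPM in Myeloid cells, so it does not mark NK cells alone. Of the 54 cells, 23 also held a UMI of Cd3d, Cd3e or Cd3g. A UMI of these 3 genes was found in 349 of 351 cells labelled CD8+ Mem T and in all 73 cells labelled gdT (gamma delta T cells). It was also found in 98.5% of CD4+ Mem T cells, so it does not tell T cell classes apart. A Cd8a or Cd8b1 UMI was found in 323 of the 351 CD8+ Mem T cells and in 16 of the 73 gdT cells. Trac, a T cell receptor alpha gene, was found in 18 of the 73 gdT cells. Median depth was 3639.5 UMIs per cell in NK, 5102 in CD8+ Mem T, 2677 in gdT and 3446.5 in CD8+ Naive T. Cell types were named by the submitters from these same cells, so levels across classes are a description and carry no test. Intervals on shares of cells are exact 95% binomial intervals, a limit beside a count of 0 is the level that 3 counts would give, and intervals and floors cover counting error only.

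On the GRCm38 build, with GENCODE gene annotation, Gzma lies at chr13:113093825-113100981 on the minus strand, and Gzmk lies 70626 bases away on the same chromosome and strand. Gzmb lies at chr14:56258838-56262260 on the minus strand. Gzmm is at chr10:79689020-79695261 and Nkg7 at chr7:43437073-43438249, both on the plus strand. Klrd1 and Klrk1 are neighbours, 11547 bases apart on chromosome 6. Promoter entries were found in RefSeq (GRCm38.p6) for 7 of the 9 genes, each from 250 bases before to 50 bases after an annotated start. The promoters of Gzma and Gzmb, of Gzmm and of Nkg7 are shown because these genes mark 3 different patterns below: NK cells, memory CD8 T cells, and the whole CD8 lineage with NK and gdT cells. Each is written 5' to 3' on the strand of its gene: Gzma at chr13:113100932-113101231 on the minus strand, Gzmb at chr14:56262285-56262584 on the minus strand, Gzmm at chr10:79688770-79689069 on the plus strand and Nkg7 at chr7:43436888-43437187 on the plus strand. Capitals mark matches on either strand to AGGTGT (T-box), TGTGGT (RUNX) or TTCNNNGAA (STAT).
Gzma: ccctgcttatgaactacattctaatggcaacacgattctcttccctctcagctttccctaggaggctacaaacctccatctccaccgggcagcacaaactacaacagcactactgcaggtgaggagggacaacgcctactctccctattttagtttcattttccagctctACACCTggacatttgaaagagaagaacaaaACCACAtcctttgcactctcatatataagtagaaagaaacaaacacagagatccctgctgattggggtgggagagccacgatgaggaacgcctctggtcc
Gzmb: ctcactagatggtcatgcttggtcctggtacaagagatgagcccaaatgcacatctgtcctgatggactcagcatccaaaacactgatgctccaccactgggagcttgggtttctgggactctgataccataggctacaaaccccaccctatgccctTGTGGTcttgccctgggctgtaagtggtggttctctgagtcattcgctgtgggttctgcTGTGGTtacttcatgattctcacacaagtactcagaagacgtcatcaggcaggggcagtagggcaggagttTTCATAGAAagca
Gzmm: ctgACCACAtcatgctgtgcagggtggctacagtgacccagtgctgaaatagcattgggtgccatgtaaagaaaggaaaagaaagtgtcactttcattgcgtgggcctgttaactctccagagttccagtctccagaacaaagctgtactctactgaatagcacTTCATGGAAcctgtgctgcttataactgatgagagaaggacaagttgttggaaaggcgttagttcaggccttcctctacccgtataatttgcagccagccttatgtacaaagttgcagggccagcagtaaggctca
Nkg7: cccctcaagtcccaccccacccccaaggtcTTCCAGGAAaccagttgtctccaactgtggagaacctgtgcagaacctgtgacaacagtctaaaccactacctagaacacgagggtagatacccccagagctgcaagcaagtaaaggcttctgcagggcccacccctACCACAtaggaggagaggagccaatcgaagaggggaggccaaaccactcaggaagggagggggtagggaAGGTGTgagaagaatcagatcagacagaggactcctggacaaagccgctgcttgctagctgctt

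The T-box letters occurred once in the Gzma window, once in the Nkg7 window and in neither the Gzmb nor the Gzmm window shown. The RUNX letters occurred in all 4, with 2 matches in Gzmb. The STAT letters occurred in Gzmb, Gzmm and Nkg7 and not in Gzma. Among all 32851 promoter windows of this length, 13.7% held the T-box letters, 16.8% the RUNX letters and 8.30% the STAT letters on either strand. Of the windows not shown, Prf1 had 1 T-box and 1 RUNX match, Gzmk 2 T-box matches, Klrk1 1 RUNX match and a further Gzmm start none. A match here is a run of letters and not a measured binding site.

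Gzma, whose product granzyme A is a tryptase, was in these nodes almost wholly an NK transcript. It stood at 8773 CPM in NK cells, 9.37 CPM in gdT, 6.83 CPM in CD8+ Mem T, 5.74 CPM in CD4+ Mem T and 1.64 CPM in CD8+ Naive T cells. NK cells, 54 of 7300, held 1882 of the 1931 Gzma UMIs, or 97.5%. By mouse, Gzma in NK cells was 7692, 14091, 7132 and 5917 CPM in Aire-DTR mice 8, 36, 4 and 7, and 12677, 8973 and 8698 CPM in WT mice 6, 97 and 1. No mouse had more than 13.1 CPM in CD8+ Mem T cells, so the mice of the 2 classes did not overlap. Gzma was found in 74.1% of NK cells (60.3% to 85.0%) and reached 138 UMIs in a cell. Its share in CD8+ Naive T cells, 0.469% (0.215% to 0.889%), lay within the range of B cells, 0.265% (0.0972% to 0.575%), which should lack it, so it is read as background.

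Gzmb, whose product granzyme B cleaves after aspartate and activates caspases, followed at 718 CPM in NK cells, 5.69 CPM in CD8+ Mem T and 4.68 CPM in gdT cells. By mouse it was 881, 709, 874 and 462 CPM in NK cells of Aire-DTR mice 8, 36, 4 and 7, and 1451, 328 and 761 CPM in those of WT mice 6, 97 and 1. The highest and the lowest value were both from WT mice, and mouse 6 had 3 NK cells. NK cells held 59.2% of Gzmb UMIs. Most of the rest were in CD4 T cells, described below. In CD8+ Mem T cells 3 of 351 cells held 10 UMIs, 7 of them in 1 cell of WT mouse 97.

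Gzmk, which encodes granzyme K, a tryptase often found in less differentiated memory CD8 T cells, was rare. It had 66 UMIs in 21 cells of the whole data set, at 79.2 CPM in NK, 13.7 CPM in CD8+ Mem T and 12.5 CPM in CD4+ Mem T cells. The NK level came from 3 cells in 2 mice. No Gzmk UMI was found in 73 gdT cells, which allows up to 14.1 CPM, or in 1918 CD8+ Naive T cells, which allows up to 0.446 CPM. Gzmk overlaps Esm1 on the other strand.

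Gzmm, which encodes granzyme M, a protease with a preference for methionine and leucine, had its highest level in memory CD8 T cells. It was at 113 CPM in CD8+ Mem T, 32.6 CPM in NK and 23.4 CPM in gdT cells, and at 0.149 CPM in CD8+ Naive T cells, where 1 of 1918 cells held a UMI. CD8+ Mem T cells held 198 of 222 Gzmm UMIs, or 89.2%. The gene was found in 99 of 351 CD8+ Mem T cells, 28.2% (23.6% to 33.2%), against 3 of 54 NK cells, 5.56% (1.16% to 15.4%). Of the 7 Gzmm UMIs in NK cells, 5 were in 1 cell, and with cells holding B cell or over 5 Hbb-bs UMIs left out the NK level was 10.9 CPM. No Gzmm UMI was found in 533 CD4+ Mem T cells.

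**Figure D1:**
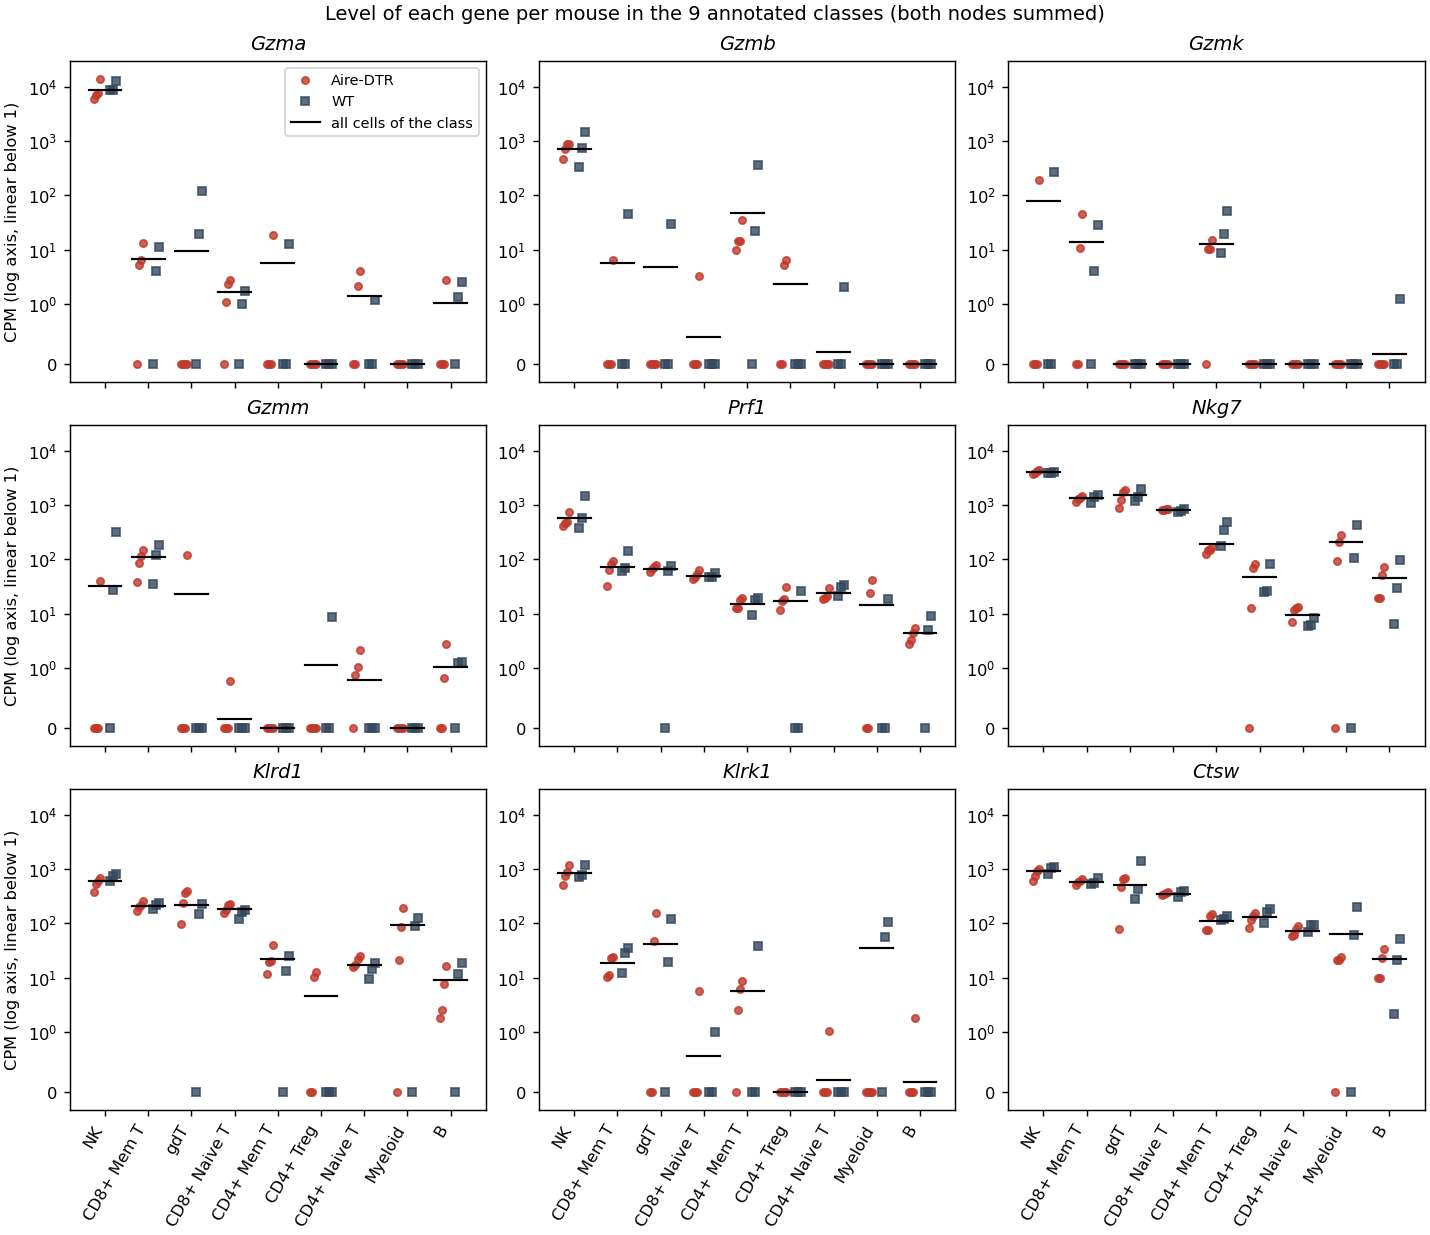
Level of each gene (CPM, log axis, linear below 1) per mouse in the 9 annotated classes, with both nodes summed. Points are mice by genotype and lines the level over all cells of the class; Gzma is at 8773 CPM in NK and 6.83 CPM in CD8+ Mem T cells, while Gzmm is at 113 CPM in CD8+ Mem T and 32.6 CPM in NK cells.

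Prf1, the perforin gene, was spread more widely. It stood at 569 CPM in NK cells, 72.9 CPM in CD8+ Mem T, 65.6 CPM in gdT, 49.7 CPM in CD8+ Naive T and 24.0 CPM in CD4+ Naive T cells. In NK cells it was 481, 753, 410 and 462 CPM in Aire-DTR mice 8, 36, 4 and 7 and 1451, 383 and 577 CPM in WT mice 6, 97 and 1. The NK level was 7.81-fold that of CD8+ Mem T cells, with no overlap of the 7 mice. The CD8+ Mem T level was 1.47-fold that of CD8+ Naive T cells, and there the mice overlapped. Prf1 was found in 302 of 1918 CD8+ Naive T cells, 15.7% (14.1% to 17.5%), against 1.10% (0.715% to 1.62%) of B cells at a median depth of 2261 UMIs. Thinned to 1000 UMIs per cell, the shares were 4.46% and 0.272%. Naive CD8 T cells thus held perforin transcripts above the level of B cells while the same cells had Gzma, Gzmb, Gzmk and Gzmm at or near that of background.

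Nkg7, a granule membrane protein needed for efficient degranulation, was found across NK, gdT and CD8 T cells. It stood at 4060 CPM in NK, 1541 CPM in gdT, 1369 CPM in CD8+ Mem T and 827 CPM in CD8+ Naive T cells. It fell off to 205 CPM in Myeloid, 192 CPM in CD4+ Mem T, 46.7 CPM in CD4+ Treg, 44.6 CPM in B and 9.33 CPM in CD4+ Naive T cells. The contrast between the naive lineages was 88.7-fold, with the 7 mice at 739 to 865 CPM in CD8+ Naive T and at 5.94 to 13.3 CPM in CD4+ Naive T cells. After each cell was thinned to 1000 UMIs, 52.0% of CD8+ Naive T and 0.774% of CD4+ Naive T cells still held an Nkg7 UMI. Unthinned shares were 84.8% and 1.82%, and B cells stood at 2.91%. Klrd1, Ctsw and Prf1 were 10.7-fold, 4.80-fold and 2.07-fold higher in CD8+ Naive T than in CD4+ Naive T cells, in 7 of 7 mice each. Nkg7 levels in gdT and CD8+ Mem T cells overlapped between mice.

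Ctsw, which encodes cathepsin W, a cysteine protease of NK and CD8 T cells, had a flatter profile. It was at 909 CPM in NK, 590 CPM in CD8+ Mem T, 520 CPM in gdT and 356 CPM in CD8+ Naive T cells, against 131 CPM in CD4+ Treg and 22.0 CPM in B cells. The NK level was 1.54-fold that of CD8+ Mem T cells, with overlapping mice. The CD8+ Mem T level was 1.66-fold that of CD8+ Naive T cells, with no overlap. Ctsw overlaps Fibp on the other strand, and whether counting used strand is not given in the sources used here, so its level is uncertain.

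The 2 receptor genes differed in their reach although they are neighbours on chromosome 6. Klrd1 was at 611 CPM in NK, 215 CPM in gdT, 209 CPM in CD8+ Mem T and 187 CPM in CD8+ Naive T cells. The CD8+ Mem T and CD8+ Naive T levels, 1.12-fold apart, overlapped between mice, and at 1000 UMIs per cell the shares were 18.1% and 17.9%. Klrk1 was at 844 CPM in NK, 42.2 CPM in gdT, 18.8 CPM in CD8+ Mem T and 0.595 CPM in CD8+ Naive T cells, and NK cells held 72.4% of its UMIs. It was found in 92.6% of NK cells (82.1% to 97.9%), 5.41% of CD8+ Mem T cells (3.29% to 8.32%) and 0.209% of CD8+ Naive T cells. Naive CD8 T cells thus carried the CD94 transcript at nearly the memory level with 4 Klrk1 UMIs in 1918 cells.

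The partners, adaptors and ligands of these receptors were read from a list of 12 genes that also held classical MHC class I genes. Of these 12, 11 were in the matrix and 5 had their highest level in NK cells. Klrc1 and Klrc2, which encode the inhibitory and activating NKG2 chains that pair with CD94, were at 275 and 242 CPM in NK cells, at 21.1 and 6.26 CPM in CD8+ Mem T cells and close to 0 in CD8+ Naive T cells. H2-K1 and H2-D1, classical MHC class I genes, were the highest of the list over CD8+ Mem T, NK and gdT cells together. They were at 4065 and 3132 CPM in NK, 2500 and 1708 CPM in CD8+ Mem T and 3022 and 1986 CPM in CD8+ Naive T cells. H2-T23, a non-classical MHC class I gene, was at 140 CPM in NK, 74.6 CPM in CD8+ Mem T and 96.9 CPM in CD8+ Naive T cells. Hcst, which encodes the NKG2D adaptor DAP10, was at 1044 CPM in NK, 976 CPM in CD8+ Mem T and 710 CPM in CD8+ Naive T cells. Tyrobp, which encodes the adaptor DAP12, was at 3226 CPM in NK and 12.0 CPM in CD8+ Mem T cells, against 4422 CPM in Myeloid cells. Of 23 other NK receptor genes found of 26 listed, 19 had their highest level in NK cells. Fcer1g, which encodes a signalling chain of Fc and NK receptors, was at 2606 CPM in NK and 15.9 CPM in CD8+ Mem T cells. Its level in Myeloid cells was 2071 CPM. Klra4, a Ly49 receptor gene, was at 1133 CPM in NK and 175 CPM in CD8+ Mem T cells, with no UMI in CD8+ Naive T cells.

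Genes of the granule machinery had their highest level in several classes. Of 13 granule exocytosis genes, 6 were highest in NK cells and 4 in Myeloid cells, and of 10 granule storage genes 2 were highest in NK cells and 6 in Myeloid cells. Srgn, which encodes the granule proteoglycan serglycin, was at 900 CPM in NK, 614 CPM in gdT and 449 CPM in CD8+ Mem T cells, against 1915 CPM in Myeloid cells. Ctsd, which encodes the lysosomal protease cathepsin D, was at 783 CPM in NK and 236 CPM in CD8+ Mem T cells. Dock8, an actin regulator needed for granule polarization, was at 186 CPM in NK and 76.3 CPM in CD8+ Mem T cells, Arf6, a small GTPase, at 214 and 150 CPM, and Coro1a, an actin-binding protein gene, at 1799 and 1727 CPM. Cst7, which encodes an inhibitor of the granzyme-activating cathepsins, was at 336 CPM in NK, 295 CPM in gdT, 258 CPM in CD8+ Mem T and 152 CPM in CD8+ Naive T cells. Serpinb9, which encodes the granzyme B inhibitor, and the related Serpinb6b were at 182 and 256 CPM in NK cells and at 13.7 and 34.2 CPM in CD8+ Mem T cells, and Serpinb6a was at 28.0 and 19.9 CPM. Fasl, the death ligand gene, was at 131 CPM in NK and 6.26 CPM in CD8+ Mem T cells. Tnfsf10, which encodes the death ligand TRAIL, was at 23.3 CPM in NK and 20.5 CPM in CD8+ Mem T cells, and Ltb, which encodes lymphotoxin beta, at 517 and 869 CPM. None of the 6 other granzyme genes listed, Gzmc to Gzmg and Gzmn, was among the genes of the matrix.

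The genes whose profile was most like that of each member were found from log2(CPM + 10) over 52 sums of class and mouse with at least 10 cells. These sums share mice and pools, so Pearson's r describes them and is not tested. Gzmk, with fewer than 100 UMIs, was left out. Only genes with at least 300 UMIs were candidates, so Gzmb, Klrk1 and Gzmm could not be named as the closest gene of another member. Nkg7 was closest to Cxcr6 (r = 0.91), Klrd1 to Epsti1 (r = 0.88), Ctsw to Cst7 (r = 0.87) and Prf1 to Ifitm10 (r = 0.83). Gzmb was closest to Gzma (r = 0.78), Klrk1 to Efhd2 (r = 0.77), Gzma to Serpinb6b (r = 0.72) and Gzmm to Cxcr3 (r = 0.72). With Gzma, Gzmb (r = 0.78) and Klrk1 (r = 0.75) had higher values than Serpinb6b but were not candidates. The next genes in rank, the second and the third of each member, were Epsti1 and Ly6c2 for Nkg7, Ly6c2 and Ifitm10 for Klrd1, Hcst and Dnajc15 for Ctsw, Ctsw and Klrd1 for Prf1, Pfn1 and Lypla2 for Gzmb, Gzma and Serpinb6b for Klrk1, Cd47 and Klra4 for Gzma, and Dop1b and Klra4 for Gzmm. Gzmm and Gzma, both granzymes, had r = 0.13 with each other. Only 2 mice had an NK sum of that size, which limits the values of the NK genes.

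Within the NK class the cells fell into a larger set with Gzma and a smaller set without it, a split chosen after the values were seen. The 40 cells with a Gzma UMI had a median of 3768.5 UMIs per cell and the 14 without had 3532.5. Prf1 was found in 33 of the 40 (82.5%) and in 2 of the 14 (14.3%). Gzmb was found in 29 of the 40 and in 0 of the 14, which allows a share of up to 21.4% at 3 cells, with an exact upper bound of 23.2%. Nkg7 was found in 40 of 40 and 12 of 14, Klrk1 in 38 and 12, and Ctsw in 39 and 12. The marker Ncr1 was found in 38 of the 40 and in 2 of the 14, Tyrobp in 37 and 8, and Klrb1c in 38 and 13. Cd3d showed the reverse, with 8 of the 40 cells and 12 of the 14. Of the other T cell markers, Cd3e was found in 6 and 11, Cd3g in 7 and 10, Trbc2 in 2 and 5 and Cd5 in 1 and 3. Trac was found in 4 and 4 and Trbc1 in 9 and 3. Cd247 was found in 24 of the 40 and 6 of the 14, a larger share of the cells with Gzma. Taken 1 at a time, Cd3d, Nkg7, Klrk1 and Klrb1c were thus each found in most of the 14 cells, and Ncr1 and Prf1 each in 2. How these genes combined within single cells was not counted.

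**Figure D2:**
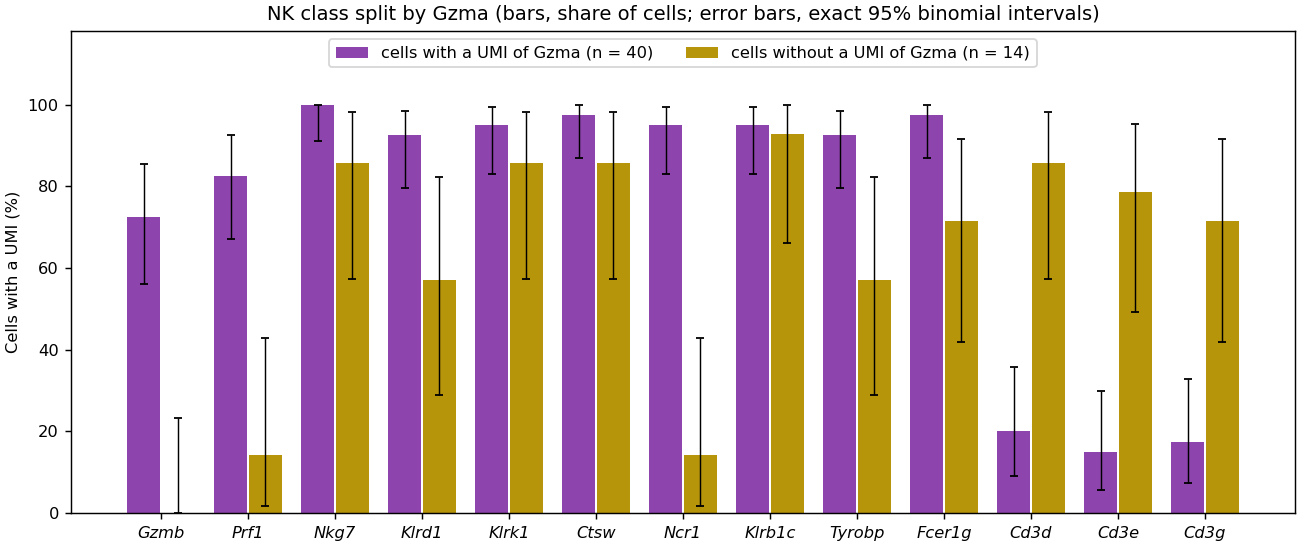
Share of NK-labelled cells with a UMI of each gene (%), for the 40 cells with a Gzma UMI and the 14 without; error bars are exact 95% binomial intervals. Gzmb is in 29 of 40 and 0 of 14 cells, Ncr1 in 38 and 2, and Cd3d in 8 and 12, whereas Nkg7 is in 40 and 12.

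Among CD8+ Mem T cells, Gzmm was found in a minority. A split by Gzmm, also made after the values were seen, gave 99 cells with and 252 without a UMI, at 5261 and 5030 median UMIs. Prf1 was found in 32.3% and 29.0% of them and Klrd1 in 56.6% and 58.7%. Ccl5, a chemokine gene of memory T cells, was found in 84.8% of the cells with Gzmm at 4144 CPM, and in 68.3% of those without at 2594 CPM. Il2rb, a chain of the interleukin receptor that supports memory CD8 cells, was found in 84.8% and 64.7%. Dapl1, a naive-cell gene, was found in 16.2% and 33.7%. Counted over all 9 genes, the median cell held UMIs of 6 members in NK, 3 in CD8+ Mem T, 2 in gdT and 2 in CD8+ Naive T cells. At least 1 of the 4 granzymes was found in 77.8% of NK, 31.6% of CD8+ Mem T, 6.85% of gdT and 0.678% of CD8+ Naive T cells.

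Gzmb gave 2 exceptions in CD4 T cells, both in few cells. In the Act. Treg subset, the activated regulatory T cells, Gzmb was found in 10 of 155 cells, 6.45% (3.14% to 11.5%), with 34 UMIs. By mouse its level was 26.8, 68.1, 153 and 62.7 CPM in Act. Treg cells of Aire-DTR mice 8, 36, 4 and 7, and 0, 0 and 78.5 CPM in those of WT mice 6, 97 and 1. The gene was thus found in 4 of 4 Aire-DTR mice and 1 of 3 WT mice, and the values overlap. In Aire-DTR mice 4 and 8 it was in 1 cell each, with 14 and 2 UMIs. The mice at 0 had 7 and 13 Act. Treg cells against 20 to 36 in the Aire-DTR mice, and no test was made. Gzmk was at 24.1 CPM in Act. Treg cells, from 12 UMIs in 3 cells. In follicular helper (Tfh) cells it was at 20.6 CPM, from 9 UMIs in 4 cells, and Gzma had 9 UMIs in 1 Tfh cell. In the Th17 subset all 56 Gzmb UMIs came from 1 cell of the brLN of WT mouse 97, which held 12 Cd3e, 0 Cd4 and 0 Ncr1 UMIs. That cell sets the WT mean of Gzmb over CD4 T cells of the brLN. With it the means were 6.78 ± 8.29 CPM in Aire-DTR mice and 27.8 ± 43.5 CPM in WT mice (SD, n = 4 and 3). Without it the WT mean was 2.25 ± 2.81 CPM. The Aire-DTR mean also leans on 1 cell, because Aire-DTR mouse 4 was at 18.8 CPM from 14 UMIs in 1 cell. Aire-DTR mice 8, 36 and 7 were at 0, 5.33 and 3.02 CPM.

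In some CD4 subsets Nkg7 and Klrd1 were found in a larger share of the cells with CD8 transcripts than of the cells without. In the Early Act. CD4 subset, 62 of 188 cells held a Cd8a or Cd8b1 UMI. Nkg7 was found in 42 of these 62 cells, 67.7%, and in 0 of the other 126, which allows a share of up to 2.38% at 3 cells, with an exact upper bound of 2.89%. Klrd1 was found in 18 of the 62 and 0 of the 126 cells, Prf1 in 17 and 4, and Ctsw in 40 and 22. In the Th17 subset Nkg7 was found in 9 of 13 cells with a Cd8a or Cd8b1 UMI and in 9 of 92 without, and in the Tfh subset, the follicular helper cells, in 7 of 15 and 7 of 121. In the Act. Treg subset the counts were 3 of 22 and 13 of 133, and in the Resting Treg subset 6 of 34 and 7 of 232. Of the 102 Nkg7 UMIs in Act. Treg cells, 44 were in 1 cell. Where the Cd8a and Cd8b1 UMIs of CD4-labelled cells come from was not tested.

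**Figure D3:**
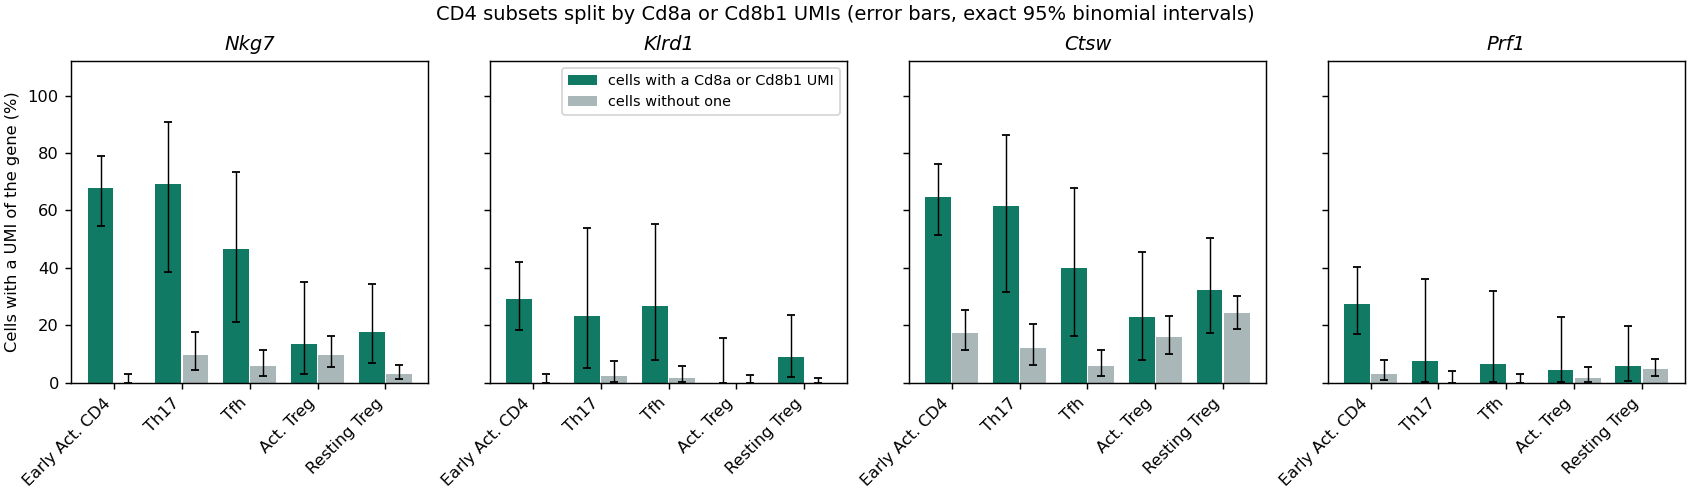
Share of cells with a UMI of the gene (%) in the 5 CD4 subsets, for cells with and without a Cd8a or Cd8b1 UMI; error bars are exact 95% binomial intervals. In Early Act. CD4, Nkg7 is in 42 of 62 cells with such a UMI and 0 of 126 without.

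The genotype comparison asks whether the members differed between Aire-DTR and WT dams that had both received DT. UMIs were summed per mouse within a class, so mice were the replicates, and edgeR's quasi-likelihood test was run over all genes of each sum with pool as a term. None of the members tested passed an adjusted p of 0.05 in the 6 genotype fits, 2 node fits and 1 interaction fit, 40 tests in all. None had an unadjusted p below 0.05 by edgeR either, and the smallest was 0.0536. DESeq2's Wald test also called 0 members. The smallest adjusted p was 0.92. An adjusted p above the threshold does not show that levels were equal, so intervals are given.

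In CD8+ Mem T cells over both nodes, 5 members had enough counts to be tested. All 5 overlapped between genotypes and 0 were called, against 3 of 3538 genes called (0.0848%) and 5.68% of genes without overlap. Gzmm was 38.8, 148, 84.4 and 115 CPM in Aire-DTR mice 8, 36, 4 and 7, and 34.5, 181 and 123 CPM in WT mice 6, 97 and 1. In both genotypes the mouse of pool 1 was lowest and that of pool 2 highest. The fitted log2 difference of Gzmm was -0.23 ± 0.24 (SE), with a 95% interval of -0.71 to 0.26. Prf1 averaged 67.8 ± 26.9 CPM in Aire-DTR mice and 90.7 ± 44.2 CPM in WT mice (SD, n = 4 and 3), a log2 difference of -0.34 with an interval of -0.94 to 0.25.

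Nkg7 had the narrowest interval of the 5, at 1318 ± 131 CPM in Aire-DTR mice and 1356 ± 226 CPM in WT mice. Its log2 difference was -0.05 with an interval of -0.22 to 0.12. Ctsw averaged 593 ± 68.8 CPM in Aire-DTR mice and 595 ± 87.2 CPM in WT mice, with an interval of -0.23 to 0.23. Klrd1 averaged 210 ± 36.4 CPM in Aire-DTR mice and 216 ± 28.9 CPM in WT mice, with an interval of -0.34 to 0.40. The summed level of the 5 B cell markers in these cells was 34.4 to 48.7 CPM in Aire-DTR mice and 61.5 to 80.5 CPM in WT mice, without overlap, and its part in these values was not tested. The 7 sums held 15 to 80 cells and 86908 to 382692 UMIs.

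By node, Gzmm had its lowest estimate in the brLN and its highest in the udLN. In the brLN it was 31.6, 162, 71.4 and 105 CPM in CD8+ Mem T cells of Aire-DTR mice 8, 36, 4 and 7, and 53.2, 194 and 148 CPM in those of WT mice 6, 97 and 1. Within each pool the Aire-DTR mice were below the WT mouse, and the share of all genes with such a pattern was not counted. The log2 difference of Gzmm was -0.43 ± 0.27 (SE; interval -0.98 to 0.12; adjusted p = 0.99 by edgeR). In that fit 0 of 5 members and 1 of 2491 genes (0.0401%) were called, with 5.66% of genes without overlap.

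In the udLN Gzmm was 46.6, 69.7, 107 and 173 CPM in CD8+ Mem T cells of the Aire-DTR mice 8, 36, 4 and 7, and 0, 0 and 84.4 CPM in those of WT mice 6, 97 and 1. The WT mice at 0 had 5 and 2 cells there. Under the minimum of 10 cells per sum only 1 WT mouse was left, so this node was fitted with a minimum of 5 cells, for 4 Aire-DTR and 2 WT mice. Mouse 36 was then alone in pool 2, so with pool as a term it added nothing to the log2 difference. The log2 difference was 0.92 with an interval of -0.65 to 2.49, and 0 of 4 members and 1 of 1373 genes (0.0728%) were called. The genotype by node term for Gzmm was 0.93 with an interval of -0.51 to 2.38, and its WT side rested on mouse 1 alone. In that fit 0 of 2153 genes (0%) were called by edgeR and 0 by DESeq2, with 88 genes at an unadjusted p below 0.05 by edgeR.

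**Figure D4:**
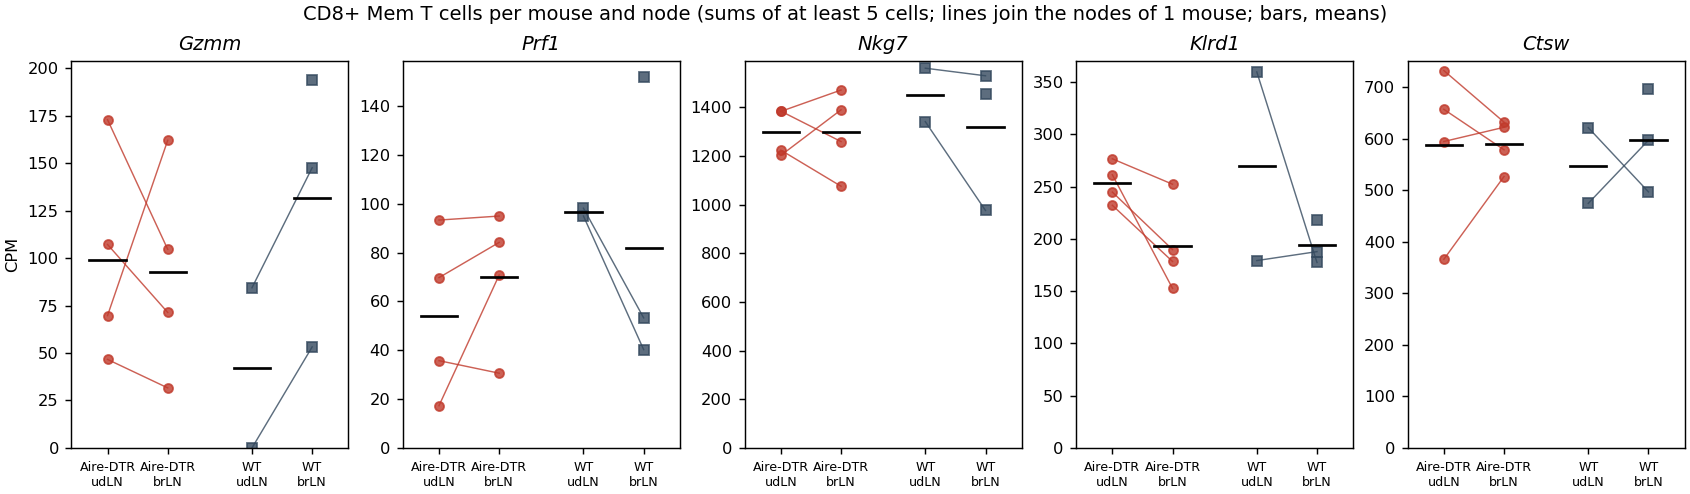
Level of members (CPM) in CD8+ Mem T cells per mouse and node, for sums of at least 5 cells. Lines join the nodes of 1 mouse and bars are means; Gzmm spans 46.6 to 173 CPM in Aire-DTR udLN and 31.6 to 162 CPM in Aire-DTR brLN, over the range of the WT mice.

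In NK cells no Aire-DTR mouse had 10 cells, so 5 cells were taken as the minimum, which kept 4 Aire-DTR mice and 2 WT mice and left out WT mouse 6. Mouse 8 was then alone in pool 1, so with pool as a term it added nothing to the log2 differences. These compare mouse 36 with WT mouse 97, and mice 4 and 7 with WT mouse 1. Of 7 members tested 0 were called and all overlapped, against 2 of 802 genes called (0.249%) and 12.2% without overlap. Gzma averaged 8708 ± 3664 CPM in Aire-DTR mice and 8835 ± 194 CPM in WT mice (SD, n = 4 and 2), with a log2 difference of 0.01 and an interval of -0.32 to 0.34. Without Aire-DTR mouse 36 the log2 difference was -0.41, and its WT side then rested on mouse 1 alone. Gzmb had a log2 difference of 0.20 with an interval of -0.48 to 0.88, and Prf1 of 0.09 with an interval of -0.60 to 0.78.

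The receptors had the larger estimates in NK cells, to which mouse 8 likewise added nothing. Klrd1 was 681, 532, 383 and 606 CPM in Aire-DTR mice 8, 36, 4 and 7, and 602 and 738 CPM in WT mice 97 and 1. Its log2 difference was -0.46 with an interval of -1.12 to 0.19. Klrk1 was 521, 886, 738 and 1212 CPM in Aire-DTR mice 8, 36, 4 and 7, and 793 and 715 CPM in WT mice 97 and 1. Its log2 difference was 0.31 with an interval of -0.32 to 0.94. The sums held 6 to 11 cells each, and NK cells of mouse 8 were all from the udLN and those of mouse 36 all from the brLN. Over all mice, the 5 B cell markers in NK cells summed to 0 to 1442 CPM in Aire-DTR mice and 0 to 63.1 CPM in WT mice, and the 3 erythroid markers to 0 to 11218 CPM in Aire-DTR mice and 0 to 438 CPM in WT mice. The T cell markers, 8 genes, summed to 487 to 2131 CPM in Aire-DTR mice and 189 to 2446 CPM in WT mice. The 6 gdT markers measured of 7 summed to 86.6 to 137 CPM in Aire-DTR mice and 189 to 254 CPM in WT mice, without overlap. Their part in these values was not tested.

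In gdT cells, mice 4 and 7 of the Aire-DTR group and mice 97 and 1 of the WT group had 10 or more cells. Nkg7 was 1936 and 1722 CPM in Aire-DTR mice 4 and 7, and 1441 and 1212 CPM in WT mice 97 and 1. The 2 groups did not overlap, and neither did those of Ctsw, but 35.3% of the 873 genes tested in these 4 mice did not overlap either. The log2 difference of Nkg7 was 0.63 ± 0.32 (SE; interval -0.01 to 1.26). Mouse 97 was the only mouse of pool 2 in this fit. With pool as a term, the WT side of the estimate thus rested on mouse 1 alone. With the mice of 3 to 5 gdT cells added, Nkg7 was 872 and 1257 CPM in Aire-DTR mice 8 and 36 and 2022 CPM in WT mouse 6, and the genotypes overlapped.

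Naive CD8 T cells gave the narrowest intervals of the genotype fits. In the brLN, Nkg7 averaged 826 ± 21.1 CPM in Aire-DTR mice and 811 ± 68.7 CPM in WT mice (SD, n = 4 and 3), with a log2 difference of 0.01 and an interval of -0.14 to 0.16. Klrd1 averaged 194 ± 39.3 CPM in Aire-DTR mice and 164 ± 18 CPM in WT mice, with a log2 difference of 0.23 and an interval of -0.01 to 0.48 (adjusted p = 0.998 by edgeR). The mice overlapped, at 148, 216, 236 and 176 CPM in Aire-DTR mice 8, 36, 4 and 7 and 144, 179 and 170 CPM in WT mice 6, 97 and 1. Of 4 members 0 were called, against 1 of 7214 genes (0.0139%), and 5.34% of genes did not overlap.

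**Figure D5:**
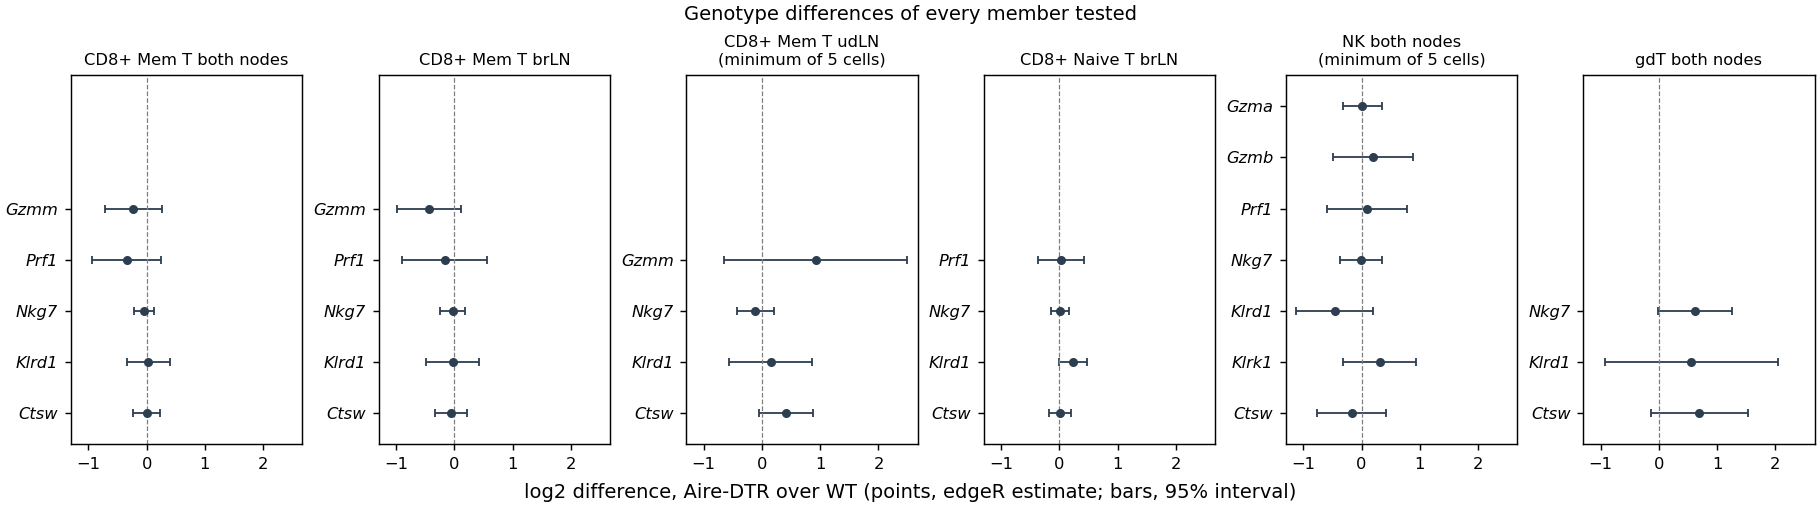
Log2 difference of each member tested, Aire-DTR over WT, in each genotype fit; points are edgeR estimates and bars 95% intervals. Every interval includes 0, and that of Nkg7 in naive CD8 cells of the brLN, -0.14 to 0.16, is far narrower than that of Gzmm in CD8+ Mem T cells of the udLN, -0.65 to 2.49.

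The node comparison asks whether cells of the node that drains the pregnant uterus differ from those of a distant node of the same mouse, and mouse was the block. In CD8+ Mem T cells, for the 5 mice with 10 cells in both nodes, 0 of 4 members and 1 of 1646 genes (0.0608%) were called. Klrd1 was 245, 261, 232 and 277 CPM in the udLN of Aire-DTR mice 8, 36, 4 and 7, against 190, 153, 178 and 252 CPM in their brLN. In WT mouse 1 it was 179 CPM in the udLN and 188 CPM in the brLN. Klrd1 was thus higher in the udLN in 4 of 5 mice, with a log2 difference of 0.30 and an interval of -0.10 to 0.69 (adjusted p = 0.988 by edgeR). Of all genes, 37.7% had the same direction in all 5 mice or all but 1. The same direction in every mouse was found for 0 of the 4 members and 6.38% of genes.

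In CD8+ Naive T cells of 7 mice, 0 of 4 members and 12 of 5317 genes (0.226%) were called, and the same direction in every mouse was found for 0 of the 4 members and 1.96% of genes. In all 7 mice or all but 1 it was found for 13.9% of genes. Prf1 was 32.3, 44.5, 55.9 and 42.2 CPM in the udLN of Aire-DTR mice 8, 36, 4 and 7, against 93.1, 48.0, 51.5 and 44.0 CPM in their brLN. In WT mice 6, 97 and 1 it was 41.1, 0 and 36.3 CPM in the udLN, against 61.2, 49.2 and 51.5 CPM in the brLN. It was lower in the udLN in 6 of 7 mice, with a log2 difference of -0.36 and an interval of -0.76 to 0.03 (adjusted p = 0.978 by edgeR). The udLN of WT mouse 97 had 14 naive CD8 T cells. Nkg7 averaged 817 ± 66.1 CPM in the udLN and 820 ± 43.1 CPM in the brLN (SD, n = 7 mice), with an interval of -0.11 to 0.12. It was higher in the udLN in 4 of 4 Aire-DTR mice and 0 of 3 WT mice, and 1.52% of genes had such opposite directions in the 2 genotypes, a difference that was not tested.

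Other genes of the pathway were tested in the same fits. Over the 9 fits, 193 tests of genes from the lists above gave 0 calls by edgeR, with 11 tests (5.7%) at an unadjusted p below 0.05. Over all genes of these fits, 1174 of 25407 tests (4.62%) were below it, a share close to that of the lists. The smallest adjusted p among them was 0.24, for Cst7 in CD8+ Naive T cells, with a log2 difference of -0.40 (udLN over brLN). In NK cells 3 of the 26 list genes tested had an unadjusted p below 0.05. The log2 difference (Aire-DTR over WT) was -2.45 for Klra3, a Ly49 receptor gene, at an adjusted p of 0.384, 1.05 for Klrc1 at an adjusted p of 0.884 and 0.96 for Klrb1f, another NK receptor gene, at an adjusted p of 0.904 by edgeR. For Klra4 the genotype by node term in CD8+ Mem T cells was 1.67 at an adjusted p of 1 by edgeR. Klra genes are a family of close copies, so the split of reads between them is uncertain. In the fits with 1 to 3 calls, the genes called were T cell receptor V segments, Hbb-bs and Gm20594.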

How the data were processed

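Lymph node cells of 4 Aire-DTR and 3 WT dams were measured by droplet-based 3' single-cell RNA sequencing. The deposited matrix holds UMI counts per cell and gene. The submitters' processing notes name Seurat, Scanpy 1.7.0, bustools 0.40.0 and kallisto 0.46.1, and build GRCm38. The role of each, the cell filter and doublet treatment are not stated in these sources, and no doublet caller was run. Mouse, node, genotype and class came from the deposited cell tables, and the scaled matrices were not used. Cells deposited a second time were dropped.

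Counts were summed per mouse, or per mouse and node, within a class where a sum held at least 10 cells. CD8+ Mem T of the udLN and NK could not be fitted under that minimum and were fitted at 5 cells. After filterByExpr and TMM scaling, genes were tested with edgeR 4.0.16's quasi-likelihood test (R 4.3.3), with pool as a term for genotype and mouse as the block for node. The mouse pairs the nodes because both nodes come from 1 animal. Benjamini-Hochberg adjustment ran over all genes tested, with a threshold of 0.05. The SE of a log2 difference is its size divided by the root of F, and a 95% interval uses the t distribution at the fit's degrees of freedom. Classes without such a fit are described by CPM and by shares of cells with exact (Clopper-Pearson) intervals. A count of 0 allows up to 3 counts. Thinning drew 1000 UMIs per cell and left out shallower cells. DESeq2 1.42.0 was an alternative. The fitting steps were tested on simulated data. The 9 genes, the gene lists and the tests were chosen with earlier results of these data known. Beyond the 9, the text names the 3 genes of a list with the highest level in CD8+ Mem T, NK and gdT cells together. It also names the genes highest in likeness. Some genes were chosen after their values were seen (Klrc1, Klrc2, Tyrobp, H2-T23, Klra3, Klrb1f, Ccl5, Il2rb and Dapl1).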

Additional observations from a re-analysis of the deposited data

Results flagged for a closer look

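In 26 groups of 4 Aire-DTR mice, the highest or lowest mouse was compared with the others by its gap, and chance alone marks about 1 in 20 such groups. Gzmb in CD8+ Mem T cells stood out in Aire-DTR mouse 4, at 6.492 CPM from 2 UMIs, with the other 3 at 0. Gzmk in NK cells stood out in Aire-DTR mouse 4, at 191.3 CPM from 7 UMIs in 1 of its 9 NK cells, with the other 3 at 0. With 3 mice at 0 the gap is the whole range whatever the fourth value is, so neither of these was a test and the chance rate does not apply to them.

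Nkg7 in CD8+ Naive T cells moved in opposite directions between nodes in the 2 genotypes. It was higher in the udLN in 4 of 4 Aire-DTR mice and in 0 of 3 WT mice. Of the 5317 genes tested between nodes in these cells, 1.52% likewise had every Aire-DTR mouse one way and every WT mouse the other. It was 872, 824, 856 and 881 CPM in the udLN of Aire-DTR mice 8, 36, 4 and 7, against 813, 822, 811 and 857 CPM in their brLN. In WT mice 6, 97 and 1 it was 719, 730 and 835 CPM in the udLN, against 818, 740 and 877 CPM in the brLN. The mean udLN-over-brLN log2 ratio was 0.1471 higher in Aire-DTR than in WT mice, and this difference was not tested.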

How the results depend on the processing

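No member passed the threshold under any alternative run, and no reported estimate larger in size than 0.2 on the log2 scale changed sign. Of 496 member values under alternatives, 70 changed sign, and the cause was not tested. Size factors of the RLE kind changed no sign and no count of calls beyond 1.5 times.

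Pairing of nodes comes from the animal. With no replicate block, the calls were 1 in CD8+ Mem T and 8 in CD8+ Naive T cells, and no member changed side or sign.

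Counts of genes called moved as follows. DESeq2 called 1 gene in CD8+ Mem T over both nodes, 3 between nodes in CD8+ Naive T and 0 in every other fit. Without the low-count filter the counts were 6 (CD8+ Mem T, both nodes), 5 (brLN), 2 (udLN), 6 (CD8+ Naive T), 0 (gdT) and 7 (CD8+ Mem T node). Without the pool term they were 1 in CD8+ Mem T over both nodes and 0 in its udLN, CD8+ Naive T, NK and gdT. With cells holding B cell or globin UMIs left out they were 1 (CD8+ Mem T, both nodes), 2 (brLN), 0 (CD8+ Naive T), 1 (NK), 1 (gdT), 0 and 7 (CD8+ Mem T and CD8+ Naive T node) and 2 (interaction). A minimum of 20 cells gave 3 in CD8+ Mem T of the brLN and 2 and 6 in the CD8+ Mem T and CD8+ Naive T node fits, and a minimum of 5 gave 0 in gdT and 3 in the CD8+ Mem T node fit. Both nodes in 1 fit gave 0 (CD8+ Mem T udLN) and 2 (CD8+ Naive T brLN). With the copied cells counted again, an alternative added after seeing the data, CD8+ Mem T of the brLN gave 2. Leaving out each mouse gave 2 to 5 calls in CD8+ Mem T over both nodes, 0 to 5 in its brLN, 1 to 5 in its udLN, 1 to 4 in CD8+ Naive T of the brLN, 0 to 1 in NK, 0 to 2 and 6 to 12 in the CD8+ Mem T and CD8+ Naive T node fits and 0 to 1 in the interaction.

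Log2 values that changed sign are given by setting. Under DESeq2, these were Klrd1 -0.0067 in CD8+ Mem T over both nodes, Prf1 0.019 in CD8+ Mem T of the brLN and Nkg7 0.0025 in NK. With the copies counted again, these were Ctsw 0.014 in CD8+ Mem T over both nodes, Klrd1 0.054 in CD8+ Mem T of the brLN, Prf1 -0.023 in CD8+ Naive T of the brLN, Gzma -0.045 in NK, Nkg7 -0.016 in CD8+ Naive T between nodes and Nkg7 0.028 in the CD8+ Mem T interaction. Without B cell or globin cells, these were Klrd1 0.15 in CD8+ Mem T of the brLN, Prf1 -0.0047 in CD8+ Naive T of the brLN and Gzmm 0.32, Nkg7 0.087 and Ctsw 0.048 in CD8+ Mem T between nodes. At 20 cells per sum, these were Nkg7 0.067 in CD8+ Mem T between nodes. At 5 cells per sum, these were Nkg7 0.032 in CD8+ Mem T between nodes. Without the low-count filter, these were Nkg7 0.0030 and Ctsw 0.051 in CD8+ Mem T over both nodes, Nkg7 0.049, Klrd1 0.047 and Ctsw 0.024 in CD8+ Mem T of the brLN, Nkg7 0.014 in CD8+ Mem T of the udLN, Nkg7 -0.0048 and Ctsw -0.0031 in CD8+ Naive T of the brLN, Gzma -0.16 and Prf1 -0.063 in NK and Nkg7 -0.039 in CD8+ Naive T between nodes. Without the pool term, these were Ctsw 0.012 in CD8+ Mem T over both nodes, Klrd1 0.0095 in CD8+ Mem T of the brLN and Gzma -0.0051 and Nkg7 0.048 in NK.

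Leaving out each mouse gave these ranges of log2 values that changed sign. In CD8+ Mem T over both nodes these were Nkg7 -0.086 to 0.018, Klrd1 -0.26 to 0.23 and Ctsw -0.20 to 0.24. In CD8+ Mem T of the brLN these were Nkg7 -0.081 to 0.043, Klrd1 -0.29 to 0.25, Prf1 -0.44 to 0.63 and Ctsw -0.15 to 0.14. In CD8+ Naive T of the brLN these were Ctsw -0.046 to 0.072, Nkg7 -0.054 to 0.056 and Prf1 -0.085 to 0.15. In NK these were Nkg7 -0.10 to 0.039, Gzma -0.41 to 0.18, Gzmb -0.17 to 0.52 and Prf1 -0.39 to 0.26. In CD8+ Mem T between nodes these were Nkg7 -0.052 to 0.058, Gzmm -0.34 to 0.20 and Ctsw -0.18 to 0.016. In CD8+ Naive T between nodes these were Nkg7 -0.025 to 0.019 and Ctsw -0.13 to 0.023. In the CD8+ Mem T interaction it was Nkg7 -0.11 to 0.043. Not run, because too few mice were left: any of the 4 mice left out in gdT, either WT mouse in NK or in CD8+ Mem T of the udLN, WT mouse 1 in the interaction, 20 cells in gdT, NK, CD8+ Mem T of the udLN and the interaction, and CD8+ Mem T of the udLN without B cell or globin cells.

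Levels and shares were limited by depth: 40 of 72 shares of cells left their interval after thinning, and with B cell or globin cells left out, Gzma in NK was 9525 CPM and Gzmm in NK 10.9 CPM. Sums of 6 to 11 NK cells and 13 to 17 gdT cells limit those fits.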
